A study of Mus musculus with 30 samples.

Results

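The cytosolic ribosomal protein genes encode the proteins of the large (Rpl) and small (Rps) subunits of the ribosome outside the mitochondria. They were taken by symbol: protein-coding genes named Rpl or Rps followed by a digit, together with Rpsa, Rplp0, Rplp1 and Rplp2, without symbols ending in -ps and a number, the Rps6k kinases and Rps19bp1. The rule gave 85 of the 53715 genes counted, 52 of the large and 33 of the small subunit. Their RNA was measured by bulk sequencing in lungs and tracheas of mouse embryos in which Myocd, the gene of the smooth muscle coactivator myocardin, could be deleted.

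All libraries but 1 carried Tbx4rtTA/+ and tetOcre/+, a transactivator at Tbx4 and the Cre recombinase that it switches on. Tbx4 is active in lung and tracheal mesenchyme, so the epithelium of each sample is not targeted as such. Mutants had MyocdF/F, with 2 floxed alleles. Controls had 1 floxed allele and the same transgenes, except E13.5 control 1, which was MyocdF/F without transgenes. E13.5 lung (right and left lobes) had 5 control and 5 mutant libraries, E18.5 lung (right lobes) 4 and 6, and E18.5 trachea 4 and 6, each made from 1 lung or trachea. The labels do not say how Cre was induced. E13.5 and E18.5 lung differ in the lobes taken as well as in stage, so that stage and collection cannot be told apart. In bulk RNA, fewer cells with much of a transcript and less transcript per cell cannot be told apart either.

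A ribosome needs 1 copy of nearly every one of these proteins, and their genes are usually transcribed at matched rates. Their mRNAs are among the most abundant in growing cells. Most begin with a 5′ terminal oligopyrimidine (TOP) tract, a C followed by a run of C and T, through which mTOR signalling sets their translation, so that mRNA level and protein output can part. MYC proteins are known activators of ribosomal protein genes and of the factors that assemble ribosomes. The same genes have left many processed copies in the mouse genome, made from spliced mRNA. A short read can match both a gene and its copies, and these tables left such reads out.

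The start of an annotated coding transcript is shown for members that the comparisons turn on, with the tract in capitals (GENCODE transcripts, GRCm38). Among the coding transcripts of a gene, the one with the longest tract was chosen:
Rps25: CCTTTTTTTCCgacatcttagcga
Rpl32: CTTCCTTCTTCCTCggcgctgcct
Rpl29: CTCTTCCggtctccggcgctgcgg
Rps21: CCCTCCTgcccaatagtgctgcgg
Rpl4: CTTTTCCTgtgggagcagccgggt
A coding transcript starting with C and at least 4 further pyrimidines was annotated for 23 of the 85 members (27.1%) and for 1121 of 21901 coding genes (5.12%). At the start site in RefSeq's promoter table (GRCm38.p6) the same was true of 14 of 65 members matched by symbol (21.5%) and of 3.01% of 27025 genes. Annotated starts are often some bases away from the start used in cells, so a missing match says only that these letters do not begin the annotated transcript. The tracts of these 5 genes differ in length, and a link of tract length with level was not tested. In the comparisons below Rps25 and Rpl32 fell strongly between the stages in both genotypes. Rpl29 did not pass that test in controls and was called lower in mutants.

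Members were abundant but not all were well measured. Over the 6 group means, 70 of the 85 reached 100 CPM (counts per M counts of the library, M being 1e+06, scaled by TMM) and 7 lay under 5 CPM. A median of 41.0% of the 75-base windows of a member's longest coding transcript also occurred in another gene's transcripts, and for 34 members more than 50% did. Exons of 38 members overlapped another gene. Rpl24, whose protein bridges the subunits, was counted at 0 to 2.70 CPM, with 80.9% of its windows shared and 47.0% of its exon bases in Gm28037. Rpl23a, with 81.7% of windows shared and an overlap with Tlcd1 and Snord42b, was counted at 1.20 to 7.17 CPM. Other members with as much shared sequence were counted higher, Rpl10 at a mean of 515 CPM (84.9% of windows shared), Rpl3 at 772 CPM (83.2%) and Rpl35 at 95.8 CPM (89.2%). The part of shared sequence in these levels was not tested.

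On a scale per length (CPM per kb of merged exons, mean of the 6 groups), the highest level was that of Rplp1, an acidic protein of the stalk that recruits elongation factors, at 1374 CPM per kb. Rps15 followed at 914, Rpl4 at 775, Rpl17 at 706 and Rplp0, the stalk's base, at 689 CPM per kb. Rpl17 came to 413 CPM per kb when its longest coding transcript gave the length. The lowest 5 were Rpl36al at 1.87, Rpl24 at 1.39 (2.12 with the longest coding transcript), Rpl39l at 0.707, Rpl3l at 0.481 and Rpl10l at 0.00123 CPM per kb. Apart from Rpl24 these are paralogs, extra genes for a variant of a ribosomal protein. Rpl10l, a retrogene of Rpl10 known from the testis, had 1 read in all 30 libraries.

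Libraries held 17.4 to 28.5 M counts for E13.5 lung, 19.9 to 32.8 M for lung at E18.5, and 11.7 to 30.5 M for the tracheas. Myocd kept reads in every library, and its levels overlapped between genotypes in each set. They were 10.1 to 18.8 CPM in controls and 6.74 to 13.04 CPM in mutants in E13.5 lung, 6.03 to 11.8 and 5.59 to 10.1 CPM in E18.5 lung, and 0.889 to 8.06 and 2.69 to 8.80 CPM in the trachea. The summed smooth muscle markers (Acta2, Myh11, Tagln, Cnn1 and Des, none at 0) were lower in mutants without overlap at each stage and tissue, at 500 to 627 CPM against 165 to 336 CPM in E13.5 lung, 265 to 303 against 235 to 258 in E18.5 lung, and 617 to 960 against 143 to 337 in the trachea. Of the 5 markers 3, 1 and 1 passed the test in these comparisons, all lower. Lung epithelium markers marked the E18.5 lungs (12468 to 15771 CPM in all), and cartilage markers the tracheas (2876 to 14167 CPM). Tracheas also held skeletal muscle markers (17.3 to 2981 CPM) and thyroid markers (4.34 to 629 CPM), at levels that differed between libraries.

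The share of all counts that fell on ribosomal protein genes separated the stages. It was 4.31% ± 0.21 (SD, n = 5) in E13.5 controls, with libraries at 4.15, 4.63, 4.09, 4.28 and 4.38%, and 4.65% ± 1.26 (SD, n = 5) in E13.5 mutants, at 6.88, 3.94, 4.40, 3.94 and 4.09%. In E18.5 lung it was 2.53% ± 0.19 (SD, n = 4) in controls, at 2.29, 2.46, 2.65 and 2.70%, and 2.66% ± 0.10 (SD, n = 6) in mutants, from 2.56 to 2.85%. In the trachea it was 2.34% ± 0.18 (SD, n = 4) in controls, at 2.20, 2.61, 2.30 and 2.27%, and 2.70% ± 0.42 (SD, n = 6) in mutants, from 2.29 to 3.37%. No E18.5 library of either tissue reached the lowest E13.5 library, and control and mutant libraries overlapped within each tissue and stage.

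**Figure D1:**
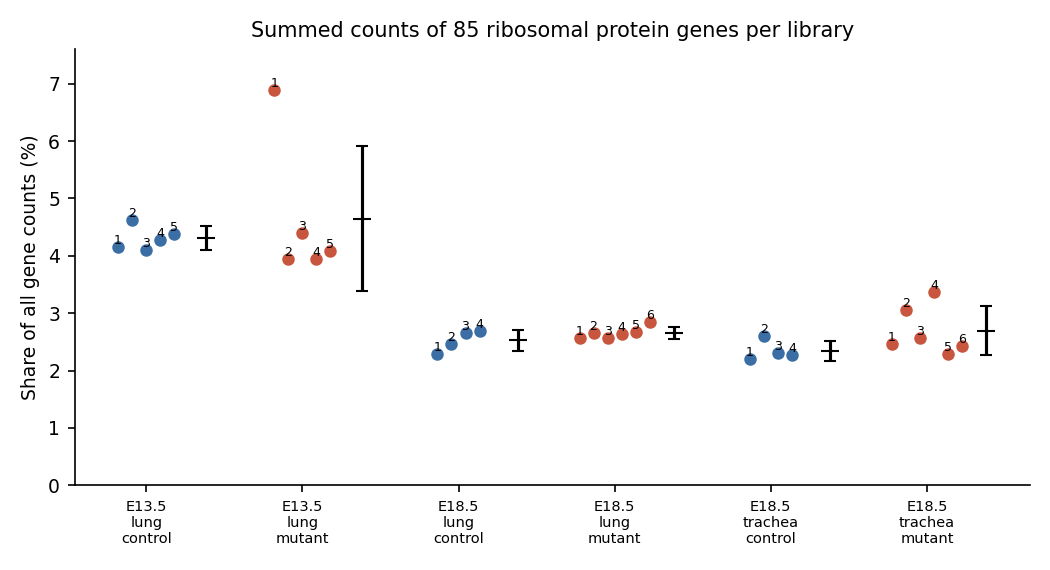
Percent of all counts on the 85 ribosomal protein genes in each of the 30 libraries (y axis), by group (x axis). Points are libraries numbered by replicate and bars are group means with SD. E13.5 libraries lie between 3.94 and 6.88%, above all E18.5 libraries, which end at 3.37%.

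Single libraries carried much of the spread. E13.5 mutant 1 was the highest of its group for 76 of the 78 members with a mean of at least 5 CPM, against 38.1% of all genes at that level, and its members lay a median of 0.85 above the other mutants on the log2 scale. The exceptions in that library included Rpl29, at −0.80. Without it the share of E13.5 mutants was 4.09% ± 0.22 (SD, n = 4). It was also the shallowest E13.5 library (17.4 M counts), and its levels fell with gene length: the slope of log2 level on log2 gene length, taken over other genes and relative to the libraries of its table, was −0.137, where the other E13.5 libraries had −0.0397 to 0.0497. Trachea mutant 4 stood apart in the same way, with 70 of 78 members highest in its group, against 24.6% of all genes. Its members lay a median of 0.75 above the other mutants. It had a slope of −0.150, 12.4 M counts and 14.5% of counts on ribosomal RNA genes. The other tracheas had 0.758 to 6.51% of counts there. The comparisons below are also given without these libraries where that moves them. Other groups too had 1 library that was highest for most members. This held for E13.5 control 2 (56 of 78, against 24.9% of all genes) and trachea control 2 (42 of 78, against 29.4%). E18.5 lung control 4 and lung mutant 6 had 58 of 78 each, against 26.5 and 20.9% of all genes.

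Relative to other mRNA, lungs at E18.5 held less ribosomal protein mRNA than lungs at E13.5, in controls and in mutants, and most members took part. Among controls, 74 of the 83 members tested were lower at E18.5 and 2 higher (Rpl3l and Rps27rt, described below), with a median log2 fold change of −0.75. Over all 18639 genes tested, 37.3% were lower and 37.4% higher, with a median of −0.01. Among mutants, which the first contrast did not use, 75 were lower and 1 higher, with a median of −0.83, where 38.4% of all genes were lower and 37.2% higher. The same 74 members were lower in both genotypes, and 23 of the 83 in controls and 26 in mutants fell by more than 1 log2 unit. The median in controls was −0.75 over 50 Rpl and −0.77 over 33 Rps genes. All calls in this comparison are edgeR quasi-likelihood tests at an adjusted p of 0.05. The counts of members called were 71 to 77 in controls and 76 to 78 in mutants as each of the 20 libraries was left out. The median then ran from −0.78 to −0.69 in controls and from −0.88 to −0.63 in mutants. The value of −0.63 was that without E13.5 mutant 1, a smaller fall than the −0.75 of controls.

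Rpl22l1, a paralog of the RNA-binding large-subunit protein Rpl22, fell most. Its levels were 85.4, 100, 88.6, 109 and 98.8 CPM in E13.5 controls and 24.5, 28.4, 26.2 and 27.1 CPM in E18.5 controls. The groups were far apart, and the log2 fold change was −1.84 (SE 0.17, adjusted p = 7.99e-10) in controls and −1.93 (SE 0.15, adjusted p = 2.40e-11) in mutants. Rpl22 itself was at 458 ± 25.5 CPM (SD, n = 5) and then 210 ± 19.1 CPM (SD, n = 4), a log2 fold change of −1.11 (SE 0.12).

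The stalk proteins followed closely. Rplp2 was at 618, 750, 621, 696 and 723 CPM in E13.5 controls and at 185, 211, 216 and 236 CPM in E18.5 controls. Its log2 fold change was −1.67 in each genotype (SE 0.16 in controls and 0.14 in mutants). Rplp1, at 976 ± 97.9 CPM (SD, n = 5) in E13.5 controls and 348 ± 29.7 CPM (SD, n = 4) in E18.5 controls, fell by 1.47 on the log2 scale, and by 1.46 in mutants. Rplp0, which binds both, fell less, by 0.77 in controls (SE 0.10) and 0.72 in mutants (SE 0.09).

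Other large falls were spread over both subunits. Rps25, a small-subunit protein used by viral internal ribosome entry, was at 396, 420, 373, 419 and 421 CPM in E13.5 controls and at 111, 129, 132 and 143 CPM in E18.5 controls, a log2 fold change of −1.64 (SE 0.13). Rps27a, made as a fusion with ubiquitin, fell by 1.39 (SE 0.15), Rpl35a by 1.32, Rpl32 by 1.27 and Rpl36a by 1.25 on the log2 scale in controls. In mutants Rpsa, which is also known as a laminin receptor, fell by 1.31 and Rpl39, which lines the exit tunnel, by 1.33. Members singled out by their biology fell too. Rpl5 and Rpl11, which with 5S rRNA bind Mdm2 when ribosome assembly fails, had log2 fold changes of −0.76 (SE 0.14) and −0.74 (SE 0.15) in controls. Rps6, the substrate of S6 kinase, had −0.66 (SE 0.11), and Rpl38, known from the mouse mutant Tail short, −0.69 (SE 0.18).

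Some members did not pass the test. Among them in both genotypes were Rpl31, Rpl34, Rpl36al, Rps14 and Rps19. Rps19, mutated in Diamond-Blackfan anaemia, was at 316, 378, 329, 317 and 342 CPM in E13.5 controls and at 302, 324, 334 and 359 CPM in E18.5 controls. The ranges overlapped, and the means, 336 ± 25.6 CPM (SD, n = 5) and 329 ± 23.7 CPM (SD, n = 4), differed by −0.01 on the log2 scale (SE 0.15, adjusted p = 0.937). Rps14, of the small subunit's platform, was at 676 ± 50.1 CPM (SD, n = 5) and 642 ± 40.9 CPM (SD, n = 4), less apart than these spreads.

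**Figure D2:**
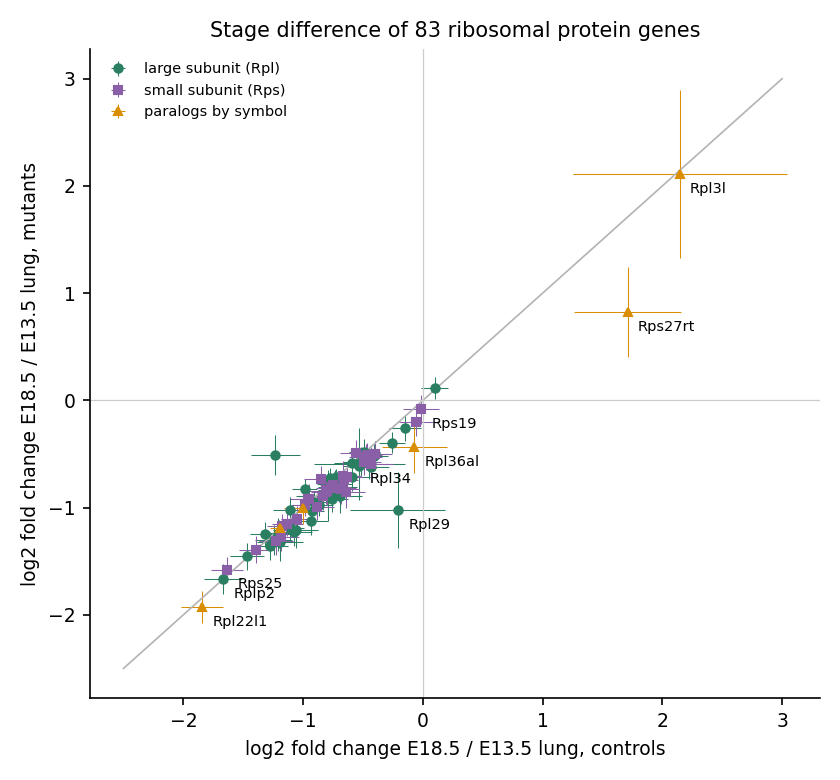
Log2 fold change, E18.5 against E13.5 lung, of the 83 members tested, in controls (x axis) and mutants (y axis), with SE bars and the line of equal values. Most points lie between −0.3 and −2 near the line; Rpl3l and Rps27rt lie furthest above 0.

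The members called higher at E18.5, Rpl3l and Rps27rt in controls and Rpl3l in mutants, were low-count paralogs. Both were too low to be tested within E13.5 lung and entered the comparison of stages only through the E18.5 libraries, where they are higher, so their values are given as a description. Rpl3l, the form of Rpl3 found in heart and skeletal muscle, had 9 reads in the 5 E13.5 control lungs and 36 in the 4 E18.5 control lungs. Its call in controls was lost when any of 6 single libraries was left out. Cardiac muscle markers rose between the same groups, from at most 13.8 CPM in E13.5 controls to 252 to 492 CPM in E18.5 controls (1 of the 5 at 0), and their part was not tested. Rps27rt, a retrogene of Rps27, was at 0.227 to 0.396 CPM in E13.5 controls and at 0.645 to 1.59 CPM in E18.5 controls. The difference of its stage effect between the genotypes did not pass (adjusted p = 0.925). Of its windows 90.3% were shared, so reads of Rps27 and of Rps27rt are hard to tell apart.

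The rest of the machinery that makes ribosomes was lower at E18.5 as well. Of 53 ribosome biogenesis factors tested, 52 fell in controls and 1 rose, with a median log2 fold change of −1.52. Among them were Fbl, the methyltransferase of box C/D particles (−2.82), its partner Nop58 (−2.61) and Gar1, of the pseudouridylation particles (−3.02). Of 15 genes of RNA polymerase I and rDNA transcription, 13 fell and none rose (median −0.94), with Polr1b at −1.58. Of 32 translation initiation factors 27 fell and 1 rose (median −0.90), the cap-binding protein gene Eif4e by 1.77. Of 77 mitochondrial ribosomal protein genes 69 fell (median −0.83), with Mrpl12 at −1.65. Of 18 other genes with TOP mRNAs 16 fell and 1 rose (median −1.04). The nucleolar chaperone gene Npm1 was at 1734 ± 137 CPM (SD, n = 5) in E13.5 and 309 ± 32.1 CPM (SD, n = 4) in E18.5 controls, a log2 fold change of −2.47. Eef2, the translocation factor, was the gene that rose (0.23, adjusted p = 0.00414). The cytosolic members, with a median of −0.75, thus fell less on the median than the assembly factors, a difference between lists that was not tested.

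For regulators and growth markers, the counts below stand against 37.4% of all genes higher and 37.3% lower at E18.5. Mycn, at 59.2 ± 6.06 CPM (SD, n = 5) in E13.5 controls and 8.43 ± 1.78 CPM (SD, n = 4) in E18.5 controls, fell by 2.80 on the log2 scale. Myc, at 86.9 ± 10.7 CPM (SD, n = 5) in E13.5 controls, fell by 2.67. Of the 9 genes of the MYC family 3 fell and 5 rose, Mxd4, a MYC antagonist, by 1.64. All 14 cell cycle genes fell (median −2.53), Mcm5 of the replicative helicase by 3.02. Of 13 mTOR pathway genes 4 rose and 5 fell (median −0.19), and Deptor, an mTOR inhibitor, rose by 3.25. Of 16 p53 target genes 10 rose and 6 fell, and Cdkn1a, the cell cycle inhibitor p21, rose by 2.68. Among ribosomal proteins with other symbols, Rack1, on the small subunit's head, fell by 0.62. Fau, whose product is cut to give eS30, did not pass (−0.31, adjusted p = 0.106).

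Summed cell type markers changed over the same interval. Of 8 lung epithelium markers 6 were called higher and 2 lower in controls. All 4 endothelium markers and 6 of 7 leukocyte markers were called higher. Summed lung epithelium markers went from 588 to 746 CPM in E13.5 controls to 13486 to 15750 CPM in E18.5 controls, endothelium from 512 to 688 to 2325 to 2509 CPM, and leukocytes from 74.3 to 86.4 to 745 to 1004 CPM, with no marker of these lists at 0. Their part in the ribosomal protein levels was not tested. A difference of the mutant effect between the stages was called for 0 of the 83 members by edgeR and by DESeq2, with 1 at an unadjusted p under 0.05. Over all genes 0.0268% were called in that contrast and 5.85% had such a p.

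Rpl29 was the only member whose counted reads passed the test between genotypes in any of the 3 tissue and stage sets. It encodes a large-subunit protein also described as a heparin-binding protein, and lies at chr9:106429454-106431568 on the plus strand of GRCm38. In E13.5 lung its level was 57.3, 58.3, 49.6, 54.4 and 52.7 CPM in controls and 70.1, 121, 136, 122 and 123 CPM in mutants. All mutants lay above all controls, and mutant 1, which was highest for nearly all other members, was the lowest mutant for Rpl29. The log2 fold change was 1.08 (SE 0.14, adjusted p = 0.00863, edgeR), and it was the only member of 81 tested to pass, where 0.206% of all genes did. The adjusted p stayed between 3.4e-07 and 0.0454 as each library was left out. With the replicate number as a block it was 0.0794, though same-numbered E13.5 controls and mutants did not deviate together (correlations −0.293 to −0.0172). Of the windows of Rpl29 46.2% were shared with 45 other genes, and 60 processed copies of it are annotated. Whether the reads that could be placed on Rpl29 follow the amount of its mRNA in each animal was not tested.

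At E18.5 Rpl29 was split within the groups rather than between them. In lung it was at 64.0, 20.6, 77.8 and 23.6 CPM in controls and at 79.1, 67.8, 68.4, 26.6, 70.2 and 23.7 CPM in mutants 1 to 6. In the trachea it was at 54.7, 26.8, 62.9 and 16.5 CPM in controls and at 63.4, 88.2, 64.7, 33.6, 56.6 and 19.8 CPM in mutants. Control 2, control 4, mutant 4 and mutant 6 were low in both tissues, and each other number was high in both. The groups overlapped fully, and the mutant effect did not pass in lung (0.27, SE 0.53, adjusted p = 0.920) or trachea (0.46, SE 0.47, adjusted p = 0.845). Rpl29 had the largest spread of the 78 members in each E18.5 group, with an SD on the log2 scale of 0.96 and 0.77 in lung controls and mutants and 0.89 and 0.77 in trachea controls and mutants, where the median member had 0.11, 0.09, 0.11 and 0.36. Between the stages it did not pass in controls (−0.21, adjusted p = 0.646) and fell in mutants by 1.02 (SE 0.36, adjusted p = 0.0152). With the replicate block the adjusted p in mutants was 0.0644, though same-numbered mutants of the stages did not deviate together (correlations −0.155 to 0.141).

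Rpl34, picked out after its values were seen, also varied widely within groups, but in a more graded way and with other replicate numbers low. It lies at chr3:130726831-130730398 on the minus strand. In E18.5 lung it was at 145, 81.3, 251 and 177 CPM in controls and at 164, 83.1, 87.3, 189, 193 and 277 CPM in mutants. In the trachea the same numbers gave 160, 114, 241 and 152 CPM and 139, 105, 86.6, 270, 156 and 238 CPM. Control 2, mutant 2 and mutant 3 were the lowest in each tissue. In E13.5 lung it ran from 137 to 335 CPM in controls (137, 161, 326, 335 and 236) and from 219 to 370 CPM in mutants, and it had the largest log2 SD among E13.5 controls (0.58). The low numbers of Rpl34 were not those of Rpl29, apart from control 2.

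**Figure D3:**
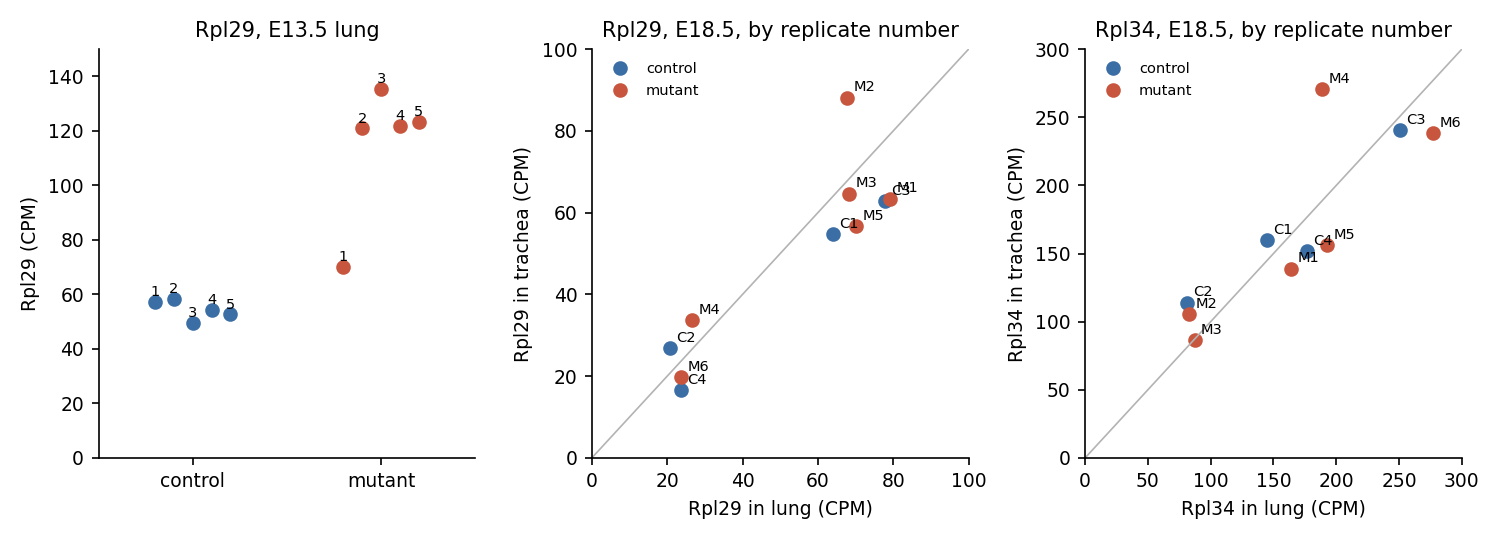
Left, Rpl29 level (CPM) in E13.5 lung libraries by genotype. Middle and right, Rpl29 and Rpl34 level in trachea against lung of the same replicate number at E18.5, each point labelled with its number. Rpl29 is at 49.6 to 58.3 CPM in E13.5 controls and 70.1 to 136 CPM in mutants. The E18.5 points of Rpl29 fall into a low and a high cluster that hold both genotypes, and those of Rpl34 are more graded.

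Some processed copies also differed strongly between libraries of a group. Over all libraries the 804 copies in the tables took 216380 counts, against 23894671 for the members. A stretch of Rpl34 and of its copy Rpl34-ps2 (chr13:116153781-116154134, plus strand) is shown since reads are divided between them by the bases that differ, which are in capitals. It holds bases 164 to 238 of the 354 that align, which differ at 10 positions in all (97.2% identical), 4 of them here:
Rpl34: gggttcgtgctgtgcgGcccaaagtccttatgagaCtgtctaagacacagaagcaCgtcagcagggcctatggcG
Rpl34-ps2: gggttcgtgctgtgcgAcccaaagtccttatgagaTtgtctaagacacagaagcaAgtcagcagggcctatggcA
Of the 280 windows of 75 bases in that alignment, 32 are identical in both. Over the whole longest coding transcript of Rpl34, 4.92% of windows were shared with another gene. Rpl34-ps2 tended to be high where Rpl34 was low. In E13.5 controls it was at 1.43, 1.58, 0.125, 0.189 and 0.512 CPM, with Rpl34 lowest in the first 2. In E18.5 lung it was at 0.137 CPM in control 3 and 0.0644 CPM in mutant 6, the libraries with the most Rpl34, and at 1.19, 1.70 and 1.17 CPM in control 2, mutant 2 and mutant 3, those with the least. Trachea mutant 4 was an exception, with 270 CPM of Rpl34 and 1.93 CPM of the copy. The highest level of the copy in the 30 libraries was 3.72 CPM, where Rpl34 ran from 81.3 to 370 CPM.

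Gm11942 is the copy of Rplp1 with the most counts (37717 in all). It lies at chr4:32964888-32965232, and bases 184 to 258 of the 345 that align hold 5 of the 9 differences (97.4% identical):
Rplp1: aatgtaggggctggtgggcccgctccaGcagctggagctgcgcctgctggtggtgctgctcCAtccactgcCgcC
Gm11942: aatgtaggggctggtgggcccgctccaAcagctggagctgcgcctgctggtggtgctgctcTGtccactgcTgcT
It was at 20.6 CPM in E13.5 control 1 and 0.396 CPM in E13.5 control 2, and at 35.7 to 42.1 CPM in the other E13.5 libraries. E18.5 lungs had 38.5 to 45.3 CPM, and tracheas 48.1 to 103 CPM apart from mutant 4, at 235 CPM. Rplp1 itself showed no such low values in E13.5 controls 1 and 2, at 957 and 1136 CPM.

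Gm10036, a copy of Rpl11, was at 22.1 to 29.5 CPM in 6 libraries and at 0.946 to 3.35 CPM in the other 24. The 6 were E13.5 control 2 and mutant 2, and control 2 and mutant 1 in both tissues at E18.5. Rpl11 itself had no such split, at 312 ± 23.5 CPM (SD, n = 4) in E18.5 control lungs. Fau, outside the symbol rule, was at 416 CPM in E13.5 control 2 and 392 CPM in E13.5 mutant 1, against 202 to 242 CPM in the other E13.5 libraries. In the trachea it was at 441 CPM in mutant 4, against 157 to 249 CPM in the other mutants. In E13.5 mutant 1 and trachea mutant 4 most members were high as well, as given above.

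**Figure D4:**
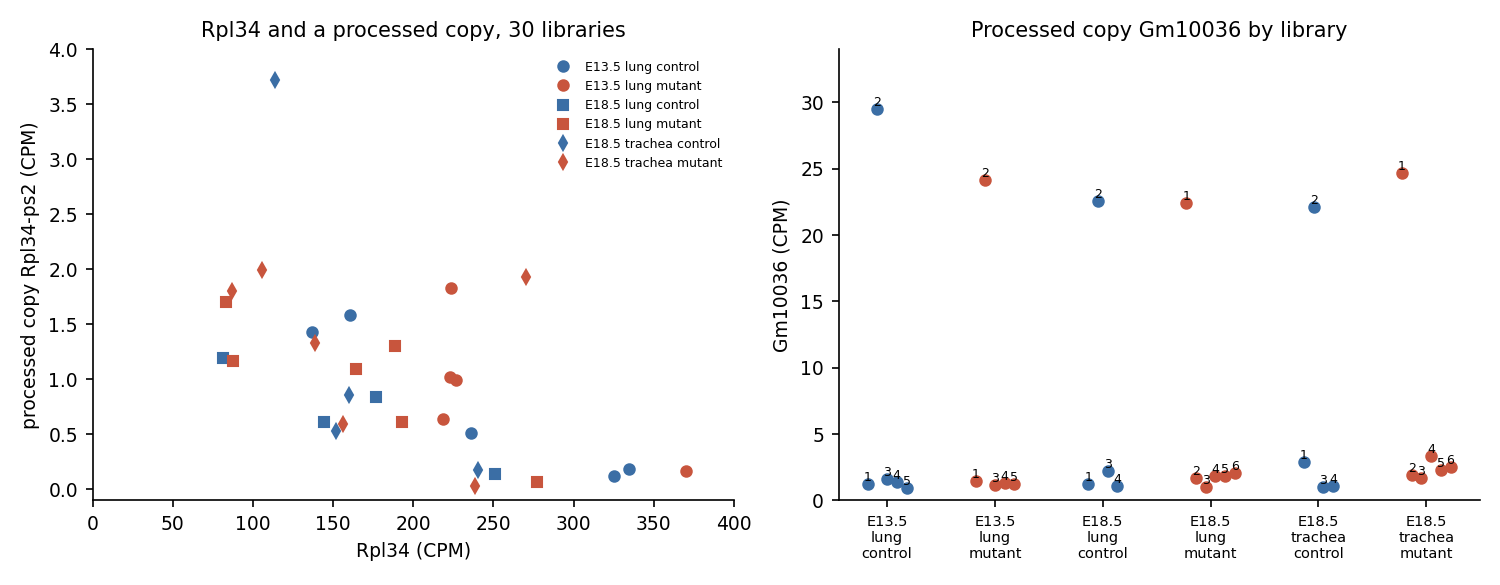
Left, level of Rpl34-ps2 against Rpl34 (CPM) in the 30 libraries. Right, level of Gm10036 (CPM) in each library by group. Rpl34-ps2 is below 0.2 CPM in several libraries with Rpl34 above 200 CPM, and 6 libraries of Gm10036 lie at 22.1 to 29.5 CPM with the other 24 at 3.35 CPM or less.

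No other member passed the test between mutants and controls. In E13.5 lung the median log2 fold change over 81 members was 0.13, with 78 above 0 (54.1% of all genes were), and it was −0.07 without mutant 1. In E18.5 lung none of 83 members passed with edgeR or DESeq2, where 0.584% of all genes did with edgeR, and 6 had an unadjusted p under 0.05, all higher, where 9.41% of all genes had such a p. The median there was 0.06, against 0.00 over all genes, and ran from 0.0200 without control 1 to 0.0934 without control 4. Summed smooth muscle markers were lower in these mutants, as given above, and none of the other lists of translation and ribosome assembly had a gene called in any genotype comparison. The 1 regulator called was Mycl, a MYC family gene, lower in E13.5 mutants (−0.64, adjusted p = 0.0480) and in E18.5 mutant lungs (−0.64, adjusted p = 0.00994).

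In the trachea members were on the median higher in mutants, but none was called. The median was 0.31 over 84 members, with 79 above 0, where all genes had a median of 0.02 and 0.071% were called. At an unadjusted p under 0.05 there were 16 members higher and 1 lower, where 6.75% of all genes had such a p. DESeq2 called none. Rplp1 shows the spread behind this: controls were at 520, 656, 506 and 533 CPM and mutants at 485, 908, 740, 1806, 553 and 472 CPM. Mutants 2, 3 and 4 were above all controls and mutants 1 and 6 below them, and the log2 fold change was 0.61 (SE 0.37, adjusted p = 0.764). The median over members was 0.15 without mutant 4, 0.07 without mutants 2 and 4, 0.02 with a covariate for the length slope and 0.02 with one for the share of ribosomal RNA. In the same tracheas erythroid markers summed to 374 to 751 CPM in controls and 535 to 3660 CPM in mutants, leukocyte markers to 276 to 332 and 316 to 714 CPM, and mesenchyme markers to 26992 to 36138 and 12781 to 32385 CPM. No marker of these 3 lists was called or was at 0 in every library, and their part in the members' levels was not tested.

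**Figure D5:**
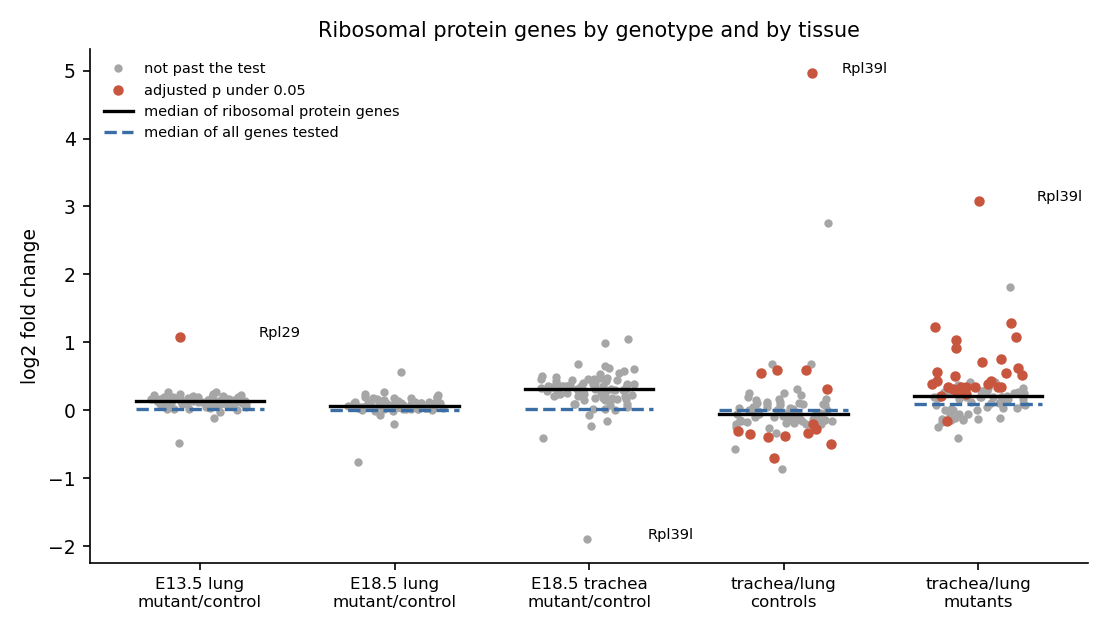
Log2 fold change of each member tested in 5 comparisons (columns), with members past the test in red, their median as a black bar and the median of all genes tested as a dashed blue line. The E18.5 trachea column is the widest among the genotype comparisons, with a median of 0.31 and no member past the test.

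Between trachea and lung at E18.5 members moved in both directions. In controls 5 of 84 were higher in the trachea and 9 lower, with a median of −0.05, where 24.5% of all genes were higher and 24.6% lower. The higher ones were Rpl39l (tested only because of its trachea reads), Rps21, Rps27l, Rpl22l1 and Rps25, and the lower ones Rps19, Rpl21, Rpl13a, Rpl5, Rps4x, Rpl7, Rps7, Rpl6 and Rpl3. In mutants 27 were higher and 1 lower (median 0.20), where 31.7% of all genes were higher and 26.5% lower. With scaling by total count alone the split in mutants was 10 higher and 11 lower, and in controls 5 and 11. Without trachea mutants 2 and 4 it was 14 higher and 10 lower in mutants, and in controls, whose test shares the spread of those libraries, 9 and 15. The same 5 members were higher in both genotypes, and no member was lower in both. A difference of the mutant effect between the tissues was called for 0 members by edgeR and by DESeq2, and over all genes for 0.0252%. At an unadjusted p under 0.05 there were 7 members, all with the higher value in the trachea, where 6.92% of all genes had such a p.

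Rpl39l, the paralog of Rpl39 known from spermatogenesis, was too low to be tested within either lung table and entered the comparison of tissues only through the tracheas, so its values are given as a description. Its 4 trachea controls had 36 to 62 reads each and 190 together, at 2.28, 5.01, 1.62 and 1.20 CPM, and its 4 lung controls 9 reads together, at 0.272, 0.0298, 0 and 0 CPM. Mutant tracheas held 3 to 23 reads each, at 0.155 to 0.973 CPM. Trachea mutants lay below all trachea controls, but the mutant effect did not pass (−1.90, SE 0.63, adjusted p = 0.617), where 0.071% of all genes did. No window of Rpl39l was shared with another gene. Cartilage markers stood at 9109 to 14167 CPM in trachea controls, 2876 to 11455 CPM in trachea mutants and 3.43 to 9.96 CPM in the E18.5 lungs. In trachea mutants 1 to 6 these markers stood at 5027, 3630, 2876, 4942, 10954 and 11455 CPM. Rpl39l in the same order was at 0.745, 0.973, 0.155, 0.711, 0.772 and 0.608 CPM. The part of these markers was not tested.

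Rps27l, a paralog of Rps27 and p53 target, was at 49.5, 44.1, 48.5 and 43.1 CPM in control tracheas and at 28.9, 34.3, 29.8 and 31.1 CPM in control lungs, without overlap (0.59, SE 0.17, adjusted p = 0.00510). Rps21 was at 203, 252, 251 and 209 CPM in control tracheas and at 141, 144, 158 and 167 CPM in control lungs (0.60, SE 0.23, adjusted p = 0.0366). This call was lost without any 1 of 6 libraries, all 4 lung controls among them (adjusted p from 0.0514 to 0.0914), and that of Rps25 (0.32, adjusted p = 0.0347) without 5 (lowest 0.18, adjusted p = 0.202, without trachea control 2). Rpl22l1 rose by 0.55 in controls (SE 0.15) and 0.39 in mutants (SE 0.12).

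The largest fall in control tracheas was that of Rps19, at 213, 178, 208 and 205 CPM against 302, 324, 334 and 359 CPM in control lungs (−0.70, SE 0.18, adjusted p = 0.00210). In mutants it was at 202 to 472 CPM (median 241) against 316 to 368 CPM (median 350), and the ranges overlapped (−0.25, adjusted p = 0.141). Rpl21 (−0.50), Rpl13a (−0.39), Rpl5 (−0.38), Rps4x (−0.35), Rpl7 (−0.34), Rps7 (−0.31) and Rpl6 (−0.27) were lower in control tracheas by smaller amounts. Without a filter on low counts Rpl13a, Rps4x, Rps7 and Rpl6 lost their calls (edgeR, adjusted p from 0.0526 to 0.129). Rpl6 also lost its call with size factors in edgeR (adjusted p = 0.0523) and without lung control 4 (adjusted p = 0.0537). In mutants the largest rises apart from Rpl39l were those of Rps27rt (1.28, adjusted p = 0.0400; 0.0582 with lung and trachea paired by number), Rplp1 (1.22), Rpl41 (1.08), Rpl36al (1.04), Rps27l (0.91), Rps21 (0.75) and Rpl38 (0.71). With single libraries left out, the lowest rises were 0.81 for Rplp1, 0.66 for Rpl41 and 0.83 for Rpl36al. They were 0.71 for Rps27l, 0.44 for Rps21 and 0.50 for Rpl38, and these genes kept their calls. For Rps27rt the adjusted p (edgeR) then reached 0.0976. Trachea mutant 4 was the highest mutant for Rplp1 (1806 CPM) and Rpl41 (1003 CPM). The only fall in mutants, that of Rpl4 (−0.15, adjusted p = 0.0470), was lost with the pairing (adjusted p = 0.0701).

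Rpl3l varied most between tracheas. It was at 6.14, 0, 0 and 2.44 CPM in controls and at 0, 0, 0, 6.30, 0.948 and 2.56 CPM in mutants. The skeletal muscle markers in the same tracheas summed to 2423, 139, 38.2 and 970 CPM and to 56.3, 35.4, 17.3, 1675, 910 and 2981 CPM, with none of the 7 at 0 in every library. The 5 tracheas with any Rpl3l were the 5 with the most skeletal muscle marker RNA. Tissue and genotype did not pass for this gene (adjusted p = 0.185 between control tracheas and lungs, and 0.970 between genotypes in the trachea).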

How the data were processed

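PolyA RNA of 30 lungs and tracheas was sequenced as single reads of 75 bases (TruSeq V2, HiSeq4000), per the labels' protocols. Per the submitters' processing notes the authors used STAR and GRCm38. Per the file headers the deposited tables hold raw counts per gene, made with featureCounts 1.6.2 on GENCODE vM17. At its default options reads with several places or genes are left out and strand is ignored. The series' design text names DESeq2 as the authors' test.

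Counts were tested with edgeR 4.0.16 in R 4.3.3: TMM, filterByExpr, a robust quasi-likelihood fit, its two-sided F test, and Benjamini-Hochberg adjustment over all genes tested at 0.05. Genotypes were compared within each table. Stage and tissue were contrasts, with their interactions, in models of 4 groups and 20 libraries. An SE was computed as the log2 fold change over the square root of the F statistic. Levels are CPM on TMM sizes over the 30 libraries; log2 levels and SDs used a pseudocount of 0.5. Symbols, copies, windows and sequences came from GENCODE vM21. Members, gene lists and tests were chosen with earlier results of these data known. Lists were only counted. Named members were Rpl29, the paralogs, the 5 highest and lowest per length, the stalk, Rpsa, Rpl5, Rpl11, Rps6, Rps27a, Rpl38 and up to 8 called in each direction and comparison. From other lists up to 3 called genes were eligible, by size.

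Libraries with the same number in E18.5 lung and trachea deviated together over 12585 genes (correlations 0.158 to 0.287 in controls and 0.120 to 0.294 in mutants), which was taken as pairing. This pairing comes from the data and not from the labels. The main tissue tests did not use it and took the libraries as independent. Only the replicate block used it. Alternatives were DESeq2 1.42.0, size factors, total counts, TMM without the members, no filter, the replicate block, length slope or ribosomal RNA share as a covariate, exon length, and each library left out. Leaving out trachea mutants 2 and 4 together was chosen after seeing the data. Within groups, no pair of libraries agreed within counting noise (lowest chi-square per degree of freedom 4.11). The fits were tested on simulated data. Some genes counted among the totals are not reported by name here.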

Additional observations from a re-analysis of the deposited data

Results flagged for a closer look

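Of 72 groups and measures looked at for a single library far from the others of its group (Dixon's test at the 95% level, groups of 4 to 6 libraries), 22 had one. Chance gives about 1 in 20 in independent groups, but these measures include genes chosen for their uneven values and members that were high together in 1 library, so the number is a description. Most came from libraries already named as standing apart.

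In E13.5 mutant 1 the share of counts on the members was 6.88%. It was highest there for Rplp1 (1570 CPM), Rplp0 (1960 CPM), Rplp2 (1219 CPM), Rpsa (2238 CPM), Rpl22l1 (185 CPM) and Rpl41 (664 CPM), and lowest for Rpl29 (70.1 CPM). Trachea mutant 4 was highest for Rplp1 (1806 CPM), Rpsa (1124 CPM), Rpl41 (1003 CPM) and Gm11942 (235 CPM).

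Other single libraries were high for 1 gene each, except trachea control 2, the shallowest library (11.7 M counts), which was high for Rpl41 and Gm10036. Rpl34 was at 370 CPM in E13.5 mutant 3, Rpsa at 624.9 CPM in E18.5 lung mutant 6, Rpl22l1 at 35.5 CPM in E18.5 lung mutant 4 and Rpl41 at 451 CPM in trachea control 2. Gm10036, the copy of Rpl11, had 1 library far above the rest in every group: 29.5 CPM in E13.5 control 2, 24.1 CPM in E13.5 mutant 2, 22.6 and 22.1 CPM in E18.5 control 2 lung and trachea, and 22.4 and 24.7 CPM in E18.5 mutant 1 lung and trachea.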

How the results depend on the processing

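No value past its threshold changed sign. Of 282 values of named members under other settings 266 kept their call and 16 lost it, and of 844 with a library left out 803 kept it and 41 lost it. Same-numbered controls and mutants of a tissue did not all deviate together (correlations −0.293 to −0.0172 in E13.5 lung, 0.0012 to 0.406 in E18.5 lung, −0.316 to 0.448 in the trachea), nor did stages (0.0505 to 0.242 in controls, −0.155 to 0.141 in mutants). With the replicate number as a block, E13.5 lung had 0 members called, stage had 75 in each genotype, and tissue had 13 in controls and 20 in mutants; the genotype and difference tests at E18.5 stayed at 0. The cause was not tested.

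The genotype median was −0.0145 in E18.5 lung with the ribosomal RNA share as a covariate. In the trachea it was 0.0152 with the length slope and 0.0237 with the ribosomal RNA share as a covariate. Tissue calls in controls were 9 without a filter and 24 without trachea mutants 2 and 4, and the tissue median in mutants was −0.0169 without those 2 libraries. As each library was left out, tissue calls in controls ran from 11 to 22 (22 without trachea mutant 4) and in mutants from 20 to 34. The E13.5 genotype median then ran from −0.0742 (without mutant 1) to 0.190 and the median difference between stages from −0.127 to 0.144. Tissue medians ran from −0.0998 to −0.0140 in controls and from 0.0641 to 0.266 in mutants. The median over all genes moved with scaling: for tissue by 0.221 in controls and 0.210 in mutants with DESeq2, and by −0.154 in mutants with total counts. All genes called numbered 79 with DESeq2 in E13.5 lung (34 with edgeR), 262 in E18.5 lung (102 with edgeR, 4 with the ribosomal RNA share as a covariate) and 99 in the trachea (13 with edgeR).

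Depth limits the low paralogs, several of which rest on under 100 reads per group. P-values measure the spread between these lungs and tracheas.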
